A study of Arabidopsis thaliana with 72 samples.

Results

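Shoots of Arabidopsis thaliana seedlings harvested 24 h after citral were compared with shoots harvested 24 h after the ethanol solvent. The comparison used 3 libraries per group, 6 of the 72 RNA-seq libraries of a time course, chosen by the organ, agent and time in the labels and by no measured value. Plants were 14 days old, grew on agar with 1% sucrose at 22 °C under 16 h of light and 8 h of dark, and were treated 7 h into the light. The citral group received citral at 202 µM per the series design, and the ethanol group received 0.1% ethanol. A different compound, t-chalcone at 21 µM, stands in the protocol text of these samples. The agent labels and the design name citral and were followed. No ecotype, mutant or transgene is named in the labels, and nothing in them says whether replicates were separate plates. The p-values of the shoot comparisons rest on the variation within groups over all 36 shoot libraries, not on these 6 alone. Part of this variation may be technical.

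Citral, which scents lemongrass oil, consists of geranial and neral, a pair of monoterpene aldehydes, and it inhibits the growth of seedlings. Both aldehydes carry a double bond next to the carbonyl group, which makes them reactive towards thiols such as glutathione. Plants handle such compounds with cytochromes P450, glutathione transferases, glycosyltransferases, alkenal reductases and aldehyde dehydrogenases, whose genes are commonly driven by TGA factors of the bZIP class. A leaf also keeps a daily rhythm set by the circadian clock, in which LHY and CCA1 are highest around dawn, PRR genes follow during the day, and GI, TOC1, LUX and ELF4 follow towards evening.

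The deposited values were converted to reads and scaled to CPM (reads of a locus in each 1 M reads of its library). The ethanol libraries held 8.64, 1.90 and 0.36 M reads and the citral libraries 2.14, 3.49 and 3.45 M. A single read thus equals 2.78 CPM in ethanol replicate 3 and 0.116 to 0.525 CPM in the other 5 libraries. A locus with no more than 1 read is said to stand at the floor, and such loci made up 34.8% of the table in ethanol replicate 3 and 7.27% to 16.9% elsewhere. Citral replicate 3 differed from the other citral libraries by a variance of 9.25 and 8.19 times the sampling noise, against 3.73 times between citral replicates 1 and 2 and 1.35 to 2.08 times between ethanol libraries, and the fit gave it a weight of 0.512. Such a ratio grows with depth, so it does not compare the groups on equal terms. The ethanol values of 1.35 and 1.72 came from pairs with the shallow ethanol replicate 3. By correlation of log2 values, ethanol replicate 3 was the lower, at 0.925 and 0.922 with its group against 0.944 and 0.959 for citral replicate 3. Means ± SD leave out ethanol replicate 3 (n = 2 ethanol, n = 3 citral), whereas the tests keep all 6 libraries. The floor covers counting error only. RBCS1A, the Rubisco small subunit that marks green tissue, stood between 5195 and 11559.7 CPM in the 6 libraries. Summed over 12 root tissue markers, levels ran from 30.5 to 102 CPM in ethanol and from 17.8 to 39.2 CPM in citral shoots, against 938 to 1296 CPM in ethanol roots of 24 h.

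The clock genes went against the hours given for the ethanol group. By the labels, samples of 0 h and of 24 h were taken at the same hour of day. LHY stood at 16.1 ± 2.03 CPM in ethanol shoots at 0 h (n = 3), at 692 ± 64.1 CPM at 12 h (n = 2) and at 407 ± 16.2 CPM at 24 h (n = 2). CCA1 followed the same order, with 47.7 ± 3.12, 588 ± 25.8 and 384 ± 4.28 CPM. Over 22 clock genes the root mean square log2 distance from the ethanol group of 24 h was 0.62 to the ethanol group of 12 h, 2.12 to that of 0 h and 1.31 to the untreated group of 0 h. The controls of 0 h themselves differed, as LHY and CCA1 stood at 43.0 ± 5.94 and 121 ± 10.6 CPM in untreated shoots (n = 3). Between ethanol 24 h and ethanol 0 h, 9614 genes (49.1%) differed. The citral group of 24 h lay 0.51 from the ethanol group of 3 h, 0.91 from the citral group of 12 h, 1.12 from the ethanol group of 0 h, 1.21 from the untreated group of 0 h and 1.95 from its own control. The ethanol group of 3 h did not lie between those of 1 h and 6 h. At 1, 3 and 6 h LHY stood at 2.91, 36.4 and 1.84 CPM and TOC1 at 208, 37.6 and 188 CPM (means, n = 3). The distance of 0.51 therefore does not give an hour of day. Citral, the hour of harvest and exchanged samples cannot be told apart in a difference that follows the clock. For this reason the gene groups below are counted against ethanol of 24 h, which is the comparison of the design, and also against ethanol of 0 h, the same hour by the labels. The comparisons share the citral libraries and are given side by side. Depth also followed the agent: over the series the median was 3.43 M reads in citral libraries and 11.4 M in controls. Neither control is thus matched to the citral group in depth, and the part of depth was not tested. Of 32 gene groups, 9 had a median of the other sign against ethanol 0 h.

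**Figure D1:**
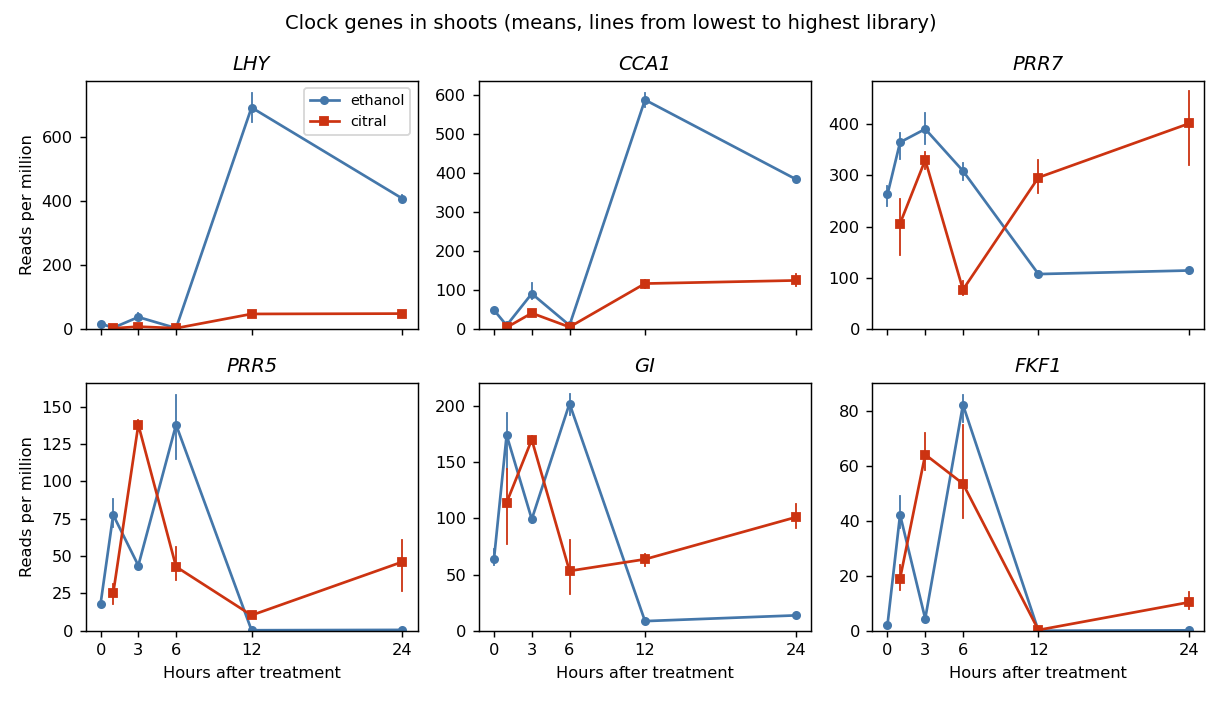
Mean CPM of 6 clock genes in shoots against hours after treatment, in ethanol (blue circles) and citral (red squares), with vertical lines from the lowest to the highest library where a group has more than 1 library of 0.5 M reads or more. In ethanol LHY stands at 407 CPM at 24 h and 16.1 CPM at 0 h, while the citral group of 24 h stands at 47.3 CPM.

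Of 19585 genes tested, 3142 (16.0%) were higher and 3365 (17.2%) lower after citral at a Benjamini-Hochberg adjusted p under 0.05 in limma, 1238 and 1349 of them by 2-fold or more. These shares, 33.2% in either direction, are the background against which the counts of each gene group are read. The median change over all genes was -0.06 on the log2 scale. Among 15401 genes with at least 5 CPM in the higher group, the 6 libraries did not overlap between groups for 6617, or 43.0%. In this count the floor was 0.5 read, or 1.39 CPM in ethanol replicate 3 and 0.143 to 0.233 CPM in citral libraries. A lower gene at the floor in ethanol replicate 3 and in the citral libraries, such as CYP82C4, thus counted as not overlapping. Against ethanol 0 h, 22.4% of the genes tested were higher and 17.8% lower (40.2% in all), and against untreated 0 h 19.3% and 17.2% (36.5%). In the text a gene rose or fell where it passed this threshold, and a change is a log2 difference ± SE from the fit unless a level in CPM is named. The count of 6507 genes rested on single libraries and on the weights: it was 3303 without ethanol replicate 1, 3655 without ethanol replicate 2, 3389 without citral replicate 2 and 2694 without library weights. Over all genes, the counts higher and lower were 1312 and 1991 without ethanol replicate 1 and 1532 and 2123 without ethanol replicate 2. They were 2293 and 2264, 1897 and 1492, and 3003 and 2930 without citral replicates 1, 2 and 3. Unweighted libraries gave 1418 and 1276. Counts of gene groups under these settings are to be read against these, as the calls of all genes dropped too. Fewer cells of a type and less RNA per cell cannot be told apart in these bulk samples.

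Of the genes with the largest rises, AT1G56300, annotated as a DnaJ-domain chaperone, stood at 0.695 CPM in ethanol replicate 1, at the floor in ethanol replicates 2 and 3 and 40.2, 64.2 and 38.9 CPM in the citral libraries, a change of 5.95 ± 0.60 (adjusted p = 2.23e-09). PRR5, a repressor of the clock that acts in the day, stood at 0.926 CPM in ethanol replicate 1, at the floor in ethanol replicates 2 and 3 and 51.4, 60.8 and 26.4 CPM in the citral libraries (5.71 ± 0.65, adjusted p = 2.97e-08). Both genes were at or near the floor in ethanol and present in all 3 citral libraries. ELI3-2, an aromatic alcohol dehydrogenase linked to defence, stood at 0.810 and 1.57 CPM in ethanol replicates 1 and 2, at the floor in ethanol replicate 3 and 34.6, 52.8 and 160.2 CPM in the citral libraries (5.55 ± 1.07). HSP17.6A, a small heat shock protein of the cytosol, stood at 0.810 and 1.05 CPM in ethanol replicates 1 and 2, at the floor in ethanol replicate 3 and 28.5, 63.1 and 117 CPM in the citral libraries (5.66 ± 1.41, adjusted p = 0.00288). In these last genes citral replicate 3 was highest, and the calls were lost without ethanol replicate 1, for HSP17.6A also without ethanol replicate 2.

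Among further large rises, AT1G09500, annotated as an NAD(P)-binding protein, stood at 5.21 and 4.2 CPM in ethanol replicates 1 and 2, at the floor in ethanol replicate 3 and 198, 194 and 305 CPM in the citral libraries (5.46 ± 0.68), and AT5G22140, annotated as an FAD/NAD(P)-binding oxidoreductase, at 9.73, 6.82 and 8.33 CPM in the ethanol libraries and 211, 298 and 513 CPM in the citral libraries (5.06 ± 0.79). ABCG40, a plasma membrane transporter that imports abscisic acid, stood at 3.24, 2.62 and 5.55 CPM in the ethanol libraries and 45.8, 172 and 81.5 CPM in the citral libraries (4.96 ± 1.03). CYP89A6, a cytochrome P450, was at 0.232 CPM in ethanol replicate 1, at the floor in ethanol replicates 2 and 3 and 12.1, 23.5 and 36 CPM in the citral libraries (5.31 ± 1.01). The groups did not overlap in any of these genes, but the calls of ABCG40 and CYP89A6 were lost without ethanol replicate 1. AT3G62550, annotated as an adenine nucleotide alpha hydrolase-like protein, rose by 4.94 ± 0.39 against ethanol 24 h and differed by 0.48 ± 0.22 against ethanol 0 h, where it was not called. For AT1G56300 the change against ethanol 0 h was 0.14 ± 0.16, also not called, whereas AT5G22140 was higher there by 5.94 ± 0.58. ELI3-2 was also called higher there, from the floor in all 3 ethanol libraries of 0 h.

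Among the largest falls, IRT1, the main iron importer of the root epidermis, stood at 32.2, 25.7 and 11.1 CPM in the ethanol libraries and the floor in the 3 citral libraries, which is at least 87.6-fold lower when the mean of ethanol replicates 1 and 2 (n = 2) is set against a floor of 3 counts over the citral group, and at least 69.6-fold lower with the mean of all 3 ethanol libraries. CYP82C4, a cytochrome P450 that makes an iron-mobilising coumarin, stood at 26.4 and 21.0 CPM in ethanol replicates 1 and 2, at the floor in ethanol replicate 3 and the floor in the 3 citral libraries, at least 71.7-fold lower by replicates 1 and 2 and at least 47.8-fold lower by all 3 with replicate 3 taken as 0. ARR15, a repressor of cytokinin signalling, stood at 6.37, 7.87 and 5.55 CPM in the ethanol libraries and the floor in the 3 citral libraries, at least 21.5-fold lower by replicates 1 and 2. All 3 genes were absent above the floor from every citral library. FRO2, the ferric reductase of iron uptake, stood at 23.3, 21.5 and 8.33 CPM in the ethanol libraries and 1.15 and 1.45 CPM in citral replicates 2 and 3, at the floor in citral replicate 1 (-4.39 ± 1.39, adjusted p = 0.0162), and bHLH38, a regulator of iron uptake, at 72.9, 49.9 and 69.4 CPM in the ethanol libraries and 1.87, 3.73 and 8.12 CPM in the citral libraries (-3.99 ± 0.73). Calls were lost without citral replicate 1 or without citral replicate 2 for IRT1, CYP82C4 and FRO2. They were also lost without ethanol replicate 1 for CYP82C4 and FRO2, and without ethanol replicate 2 for FRO2. Set against ethanol 0 h, none of IRT1, CYP82C4, ARR15 and FRO2 was called, and bHLH38 was at 1.0 ± 0.81, also not called. In ethanol roots of 24 h IRT1, CYP82C4 and FRO2 stood at 286 ± 129, 169 ± 94.5 and 169.8 ± 93.0 CPM (n = 3). There bHLH38 and ARR15 stood at 13.4 ± 6.84 and 0.63 ± 0.052 CPM. In roots IRT1, CYP82C4, FRO2 and bHLH38 were also called lower after citral, and ARR15 was not called. The part of root tissue in these falls was not tested.

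XTH17, a xyloglucan-modifying enzyme of the cell wall, fell by 4.05 ± 0.83. AT4G02850, annotated in the phenazine biosynthesis PhzC/PhzF family, stood at 30.7, 33.6 and 33.3 CPM in the ethanol libraries and 2.33, 1.43 and 2.32 CPM in the citral libraries (-4.03 ± 0.47). THI2.2, a thionin, which is a small antimicrobial peptide, stood at 141, 149.6 and 175 CPM in the ethanol libraries and 10.3, 8.89 and 20.9 CPM in the citral libraries (-3.75 ± 0.40). In both genes every citral library lay several-fold under every ethanol library. LDOX, which makes anthocyanidins, fell by 3.95 ± 1.09, a call lost without citral replicate 1 or without citral replicate 2. AT2G27402, annotated as a plastid transcriptionally active protein, fell by 3.73 ± 0.35. Compared with ethanol 0 h, XTH17, AT4G02850, THI2.2 and AT2G27402 were also lower, with changes of -4.90 ± 0.80, -2.56 ± 0.46, -2.19 ± 0.39 and -1.32 ± 0.34, whereas LDOX was at -1.72 ± 1.08 and was not called.

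By absolute level, the largest gains and losses were in abundant leaf transcripts. CAT3, a catalase of peroxisomes, stood at 437, 422 and 283 CPM in the ethanol libraries and 2377, 3068 and 1698 CPM in the citral libraries (2.69 ± 0.15, adjusted p = 8.44e-15). CCL, annotated as CCR-like and known as a rhythmic transcript, stood at 97.5, 55.6 and 83.3 CPM in the ethanol libraries and 1305, 1445 and 669 CPM in the citral libraries (4.04 ± 0.23). Neither was called against ethanol 0 h, where the differences were -0.22 ± 0.14 and -0.43 ± 0.19. GRP3S, a glycine-rich protein, stood at 409, 400 and 489 CPM in the ethanol libraries and 1929, 3349 and 1717 CPM in the citral libraries (2.58 ± 0.19), and it was also higher against ethanol 0 h (2.74 ± 0.18). THI1, which makes the thiazole of thiamine, rose by 0.81 ± 0.13. The largest losses were RCA, the Rubisco activase, at 11886, 14027 and 14125 CPM in the ethanol libraries and 7663, 6317 and 7431 CPM in the citral libraries (-0.95 ± 0.16), and RBCS1A at 9536, 11017 and 11559.7 CPM in the ethanol libraries and 5868, 5195 and 6140.2 CPM in the citral libraries (-0.94 ± 0.11). Set against ethanol 0 h, RCA was higher by 0.51 ± 0.15 and RBCS1A was lower (-0.46 ± 0.11). The 6 libraries did not overlap for any of these genes.

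**Figure D2:**
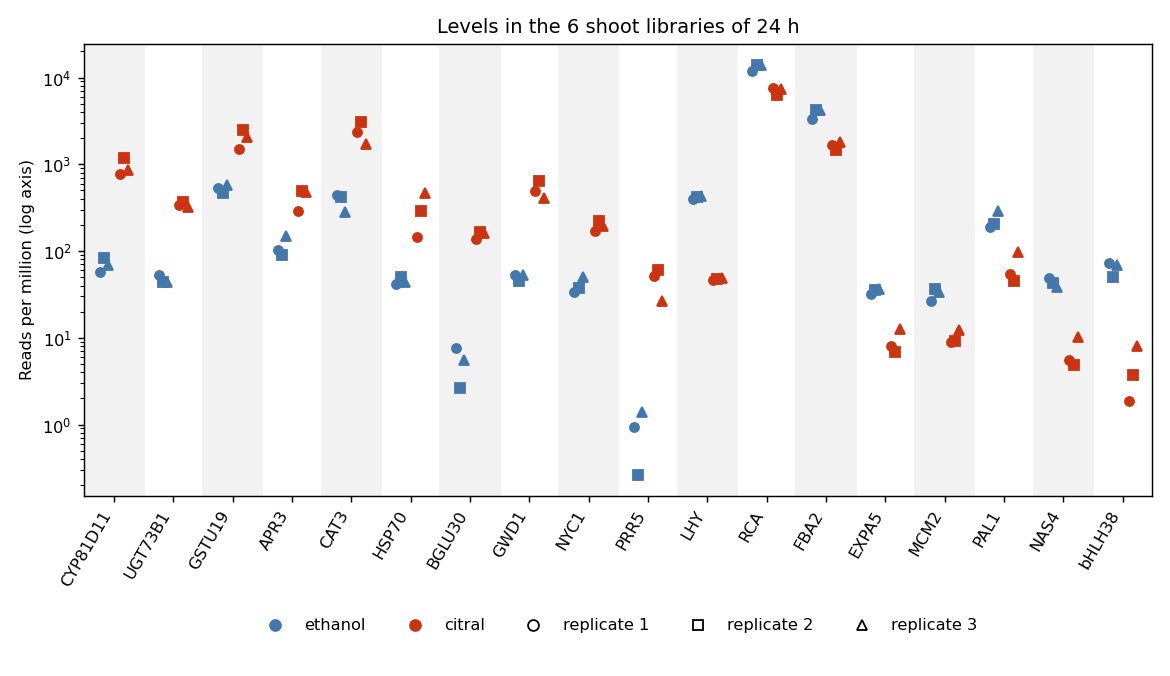
CPM on a log axis of 18 genes in the 6 shoot libraries of 24 h, ethanol in blue and citral in red, with symbol shape for the replicate and loci at the floor drawn at 0.5 of a read. The groups stand apart in every gene shown, for instance CYP81D11 at 57.2 to 84.0 CPM in ethanol and 768 to 1186 CPM in citral.

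Detoxification genes rose together. Of 45 tested members 38 rose and 0 fell, with a median change of 2.16, against 16.0% higher among all genes. The count against ethanol 0 h was 42 higher and 0 lower, median 3.41. The 7 members not called against ethanol 24 h ran from -0.67 to 0.75. CYP81D11, a cytochrome P450 of the response to foreign compounds, stood at 57.2, 84.0 and 69.4 CPM in the ethanol libraries and 768, 1186 and 861 CPM in the citral libraries (3.83 ± 0.38, adjusted p = 1.8e-08). UGT73B1, a glucosyltransferase, stood at 52.3, 43.6 and 44.4 CPM in the ethanol libraries and 336, 364 and 319 CPM in the citral libraries (2.86 ± 0.18, adjusted p = 6.55e-14). The glutathione transferase GSTU19 was at 527, 470.4 and 583 CPM in the ethanol libraries and 1497, 2493 and 2063 CPM in the citral libraries (2.0 ± 0.14). All 3 had every citral library above every ethanol library. GSTL1, a glutathione transferase of the lambda class that is not in the list, was among the largest falls, at 7.29 and 6.30 CPM in ethanol replicates 1 and 2, at the floor in ethanol replicate 3 and 0.934 and 1.16 CPM in citral replicates 1 and 3, at the floor in citral replicate 2 (-3.59 ± 0.75, adjusted p = 0.000341), and it was not called against ethanol 0 h (0.23 ± 0.81). Its call was lost without citral replicate 2. The 38 detoxification genes called higher numbered 23 without ethanol replicate 1.

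The list includes enzymes that act on reactive carbonyls. AER, an alkenal reductase that saturates the double bond of such aldehydes, stood at 149, 163 and 147 CPM in the ethanol libraries and 605, 873 and 867 CPM in the citral libraries (2.32 ± 0.19). ALDH7B4, an aldehyde dehydrogenase, stood at 107, 87.1 and 88.9 CPM in the ethanol libraries and 501, 517 and 321 CPM in the citral libraries (2.3 ± 0.16). OPR1, an oxophytodienoate reductase of the class that acts on unsaturated carbonyls, was at 151, 169 and 183 CPM in the ethanol libraries and 1059, 1528 and 1572 CPM in the citral libraries (3.07 ± 0.36). All 6 libraries of each gene kept the groups apart. GSTU1, a further glutathione transferase, rose by 2.71 ± 0.29. Compared with ethanol 0 h, the same genes were higher by 3.37 ± 0.17 (AER), 1.27 ± 0.14 (ALDH7B4), 4.35 ± 0.32 (OPR1) and 5.16 ± 0.29 (GSTU1).

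The 250 bases before the annotated gene start were read in TAIR10.1 (RefSeq) for 19482 of the genes tested, and 6 motifs were searched on both strands. TGACG, the as-1 element core that TGA factors bind, was found in 44.4% of 45 detoxification promoters, 40.9% of 22 clock promoters and 28.1% of 32 dark-induced promoters, and in 19.4% of all promoters. It was in 21.2% of promoters of genes that were higher and 18.5% of those of genes that were lower. The telo box AACCCTA was in 17.8% of 298 promoters of ribosomal protein genes and in 5.25% of all. The evening element core AATATCT was in 54.5% of 22 clock promoters and 10.1% of all, in 15.5% of the promoters of higher genes and in 7.92% of those of lower genes. The G-box CACGTG was in 36.4% of clock promoters and 7.41% of all. The I-box GATAAG was in 28.1% of dark-induced promoters and 12.5% of all, in 16.1% of the promoters of higher genes and in 10.4% of those of lower genes. ACTCAT, a site of S1 bZIP factors, was in 11.9% of all promoters, and in 11.2% and 11.8% of those of higher and lower genes. Among the 3 dark-induced genes BGLU30, GDH2 and TPS11, whose values follow further on, the window held 1 TGACG in BGLU30, 2 GATAAG in TPS11 and none of the 6 motifs in GDH2. A match of letters is a description and not a binding site, and the shares carry no test.

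3 of these promoter windows are printed 5′ to 3′ with motif matches in capitals, chosen after the values were seen to show a detoxification promoter with TGACG, one without any of the 6 motifs and a clock promoter that combines several. The UGT73B1 window (chr4:16350204-16350453, minus strand) holds TGACG at 2 places and GATAAG at 1. The GSTU19 window (chr1:29488008-29488257, minus strand) holds none, although its gene rose. The PRR7 window (chr5:642031-642280, minus strand) holds 1 G-box, the as-1 core at 3 places (1 on the other strand), and the S1 bZIP site and the evening element core at 1 place each, both read on the other strand.
UGT73B1: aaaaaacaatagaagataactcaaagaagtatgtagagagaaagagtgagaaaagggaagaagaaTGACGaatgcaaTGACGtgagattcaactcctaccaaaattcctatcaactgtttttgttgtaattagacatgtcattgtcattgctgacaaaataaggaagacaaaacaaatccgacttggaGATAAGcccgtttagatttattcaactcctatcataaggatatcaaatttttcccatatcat
GSTU19: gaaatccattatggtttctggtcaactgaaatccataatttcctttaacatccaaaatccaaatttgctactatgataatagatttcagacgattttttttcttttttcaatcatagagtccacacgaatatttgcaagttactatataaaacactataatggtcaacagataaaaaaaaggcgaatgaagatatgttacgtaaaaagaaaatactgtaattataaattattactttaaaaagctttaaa
PRR7: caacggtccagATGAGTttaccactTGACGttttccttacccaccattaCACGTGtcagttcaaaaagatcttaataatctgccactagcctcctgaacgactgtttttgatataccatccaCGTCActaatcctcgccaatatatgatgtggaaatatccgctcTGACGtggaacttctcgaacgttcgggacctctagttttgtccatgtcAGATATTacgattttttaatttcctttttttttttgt

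Genes of sulfur supply and of glutathione, the thiol that glutathione transferases attach to reactive compounds, rose in part. Of 19 members 11 rose and 0 fell (median 0.99), against 15 and 1 relative to ethanol 0 h (median 2.22) and 7 and 3 relative to untreated 0 h (median -0.07). APR3, which reduces activated sulfate, stood at 103, 90.3 and 149.9 CPM in the ethanol libraries and 293, 491 and 484 CPM in the citral libraries (2.06 ± 0.40). LSU1, a marker of sulfur limitation, stood at 1.27 CPM in ethanol replicate 1, at the floor in ethanol replicates 2 and 3 and 21.9, 42.4 and 60.9 CPM in the citral libraries (5.12 ± 1.19), a call lost without ethanol replicate 1. SERAT2;1, which makes the acceptor for cysteine synthesis, rose by 1.43 ± 0.19, and the vacuolar sulfate exporter SULTR4;2 rose by 1.96 ± 0.36. The enzymes that build glutathione, GSH1 and GSH2, rose by 0.60 ± 0.11 and by 1.29 ± 0.12, and their libraries did not overlap. The 11 sulfur genes called higher numbered 7 without ethanol replicate 1.

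Oxidative stress genes included catalases, peroxidases and the alternative oxidase of mitochondria. Here 9 of 20 rose and 2 fell (median 1.12), with 8 higher and 1 lower against ethanol 0 h. GPX6, a glutathione peroxidase, stood at 47.4, 34.1 and 38.9 CPM in the ethanol libraries and 226, 392 and 550.1 CPM in the citral libraries (3.09 ± 0.26). AOX1A, the alternative oxidase, was at 16.6, 17.3 and 27.8 CPM in the ethanol libraries and 80.8, 113 and 181 CPM in the citral libraries (2.70 ± 0.35). Both were highest in citral replicate 3, and both were also higher against ethanol 0 h, by 2.33 ± 0.20 and 2.33 ± 0.25. The catalase CAT1 rose by 3.05 ± 0.17 and the iron superoxide dismutase FSD1 rose by 1.36 ± 0.16, whereas against ethanol 0 h they differed by 0.25 ± 0.11 and -0.30 ± 0.15 and were not called. The glutathione reductase GR1 fell by 0.51 ± 0.16 with groups that overlapped, a call lost without any of 3 libraries (ethanol replicate 2, citral replicates 1 and 2), and it was higher by 1.33 ± 0.15 against ethanol 0 h. The 9 oxidative stress genes called higher numbered 5 without ethanol replicate 1.

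Heat shock genes were mostly higher with all 6 libraries, a count that rested on ethanol replicate 1. Of 29 heat shock and chaperone genes 21 rose and 3 fell, median 2.24, and against ethanol 0 h 25 were higher and 1 lower. HSP70 stood at 42.1, 50.4 and 44.4 CPM in the ethanol libraries and 145, 288 and 469 CPM in the citral libraries (2.48 ± 0.57). HSP17.4 stood at 2.43 and 1.57 CPM in ethanol replicates 1 and 2, at the floor in ethanol replicate 3 and 30.8, 82.6 and 138 CPM in the citral libraries (4.92 ± 1.07), and AT2G29500, annotated as an HSP20-like chaperone, at 3.24, 3.15 and 5.55 CPM in the ethanol libraries and 42.0, 101 and 207 CPM in the citral libraries (4.70 ± 0.98). In these 3 genes citral replicate 3 was highest and citral replicate 1 lowest, several-fold apart. The repressor HSFB1 rose by 1.35 ± 0.29 and the coactivator MBF1C rose by 2.24 ± 0.51. Without ethanol replicate 1 the calls of HSP70, HSP17.4, AT2G29500, HSFB1 and MBF1C were lost. HSC70-1, the constitutive cytosolic chaperone, stood at 1924, 2058 and 1708 CPM in the ethanol libraries and 819, 813 and 923 CPM in the citral libraries (-1.21 ± 0.11), and HSP90-2 fell by 1.06 ± 0.22. Compared with ethanol 0 h, these 2 differed by -0.14 ± 0.10 and 0.65 ± 0.20, the second of which was called higher. The 21 heat shock and chaperone genes called higher numbered 0 (with 3 lower) without ethanol replicate 1 and 6 without ethanol replicate 2.

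Chaperones of the endoplasmic reticulum, targets of the unfolded protein response, were among the genes that fell. Of 16 members 1 rose and 7 fell (median -0.41), and against ethanol 0 h 3 were higher and 0 lower. BIP2, the lumenal HSP70, stood at 173, 156 and 183 CPM in the ethanol libraries and 49.5, 87.5 and 137 CPM in the citral libraries (-1.04 ± 0.25). The lectin chaperones CNX1 and CRT1A fell by 0.94 ± 0.18 and by 0.63 ± 0.12. Set against ethanol 0 h, BIP2, CNX1 and CRT1A differed by 0.19 ± 0.23, 0.31 ± 0.16 and 0.10 ± 0.11, and none was called. bZIP28, a sensor of unfolded proteins, rose by 0.59 ± 0.21, a call lost without any of 4 libraries (ethanol replicates 1 and 2, citral replicates 2 and 3). BIP2 was not called without citral replicate 1. The 7 unfolded protein response genes called lower numbered 4 without ethanol replicate 1, 4 without ethanol replicate 2, 3 without citral replicate 1 and 2 with unweighted libraries.

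Genes known to rise in darkness or under carbon starvation, most of them for the breakdown of amino acids and the sparing of sugar, were mostly higher. Of 32 members 28 rose and 1 fell, with a median of 1.26. BGLU30, a dark-induced beta-glucosidase, stood at 7.64, 2.62 and 5.55 CPM in the ethanol libraries and 139, 164 and 160.2 CPM in the citral libraries (4.74 ± 0.50, adjusted p = 2.55e-08). GDH2, a glutamate dehydrogenase that releases ammonium, stood at 175, 141 and 106 CPM in the ethanol libraries and 549, 522 and 518 CPM in the citral libraries (1.84 ± 0.22). IVD, which breaks down leucine, was at 64.6, 54.1 and 33.3 CPM in the ethanol libraries and 318, 291 and 156 CPM in the citral libraries (2.23 ± 0.29). The citral group exceeded the ethanol group in every library. DIN4, of branched-chain keto acid breakdown, rose by 1.87 ± 0.28, bZIP1, a starvation-responsive regulator, rose by 1.87 ± 0.26, and TPS11, a trehalose phosphate synthase-like protein, rose by 1.44 ± 0.18. The count against ethanol 0 h was 13 higher and 3 lower (median 0.37). There BGLU30, GDH2 and IVD were higher by 7.41 ± 0.54, 1.6 ± 0.19 and 1.31 ± 0.23, while DIN4 and TPS11 differed by 0.39 ± 0.21 and 0.32 ± 0.15 and were not called. The 28 dark-induced genes called higher numbered 18 without ethanol replicate 1 and 18 with unweighted libraries.

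Senescence regulators and genes of chlorophyll breakdown rose against both controls. Of 23 members 13 rose and 1 fell (median 1.15), and 15 were higher and 2 lower against ethanol 0 h. NYC1, which opens the breakdown of chlorophyll b, stood at 33.9, 37.3 and 50 CPM in the ethanol libraries and 172, 222 and 192 CPM in the citral libraries (2.48 ± 0.16, adjusted p = 1.77e-13). PPH, which removes the phytol chain, was at 56.5, 44.6 and 58.3 CPM in the ethanol libraries and 119.5, 125 and 103 CPM in the citral libraries (1.23 ± 0.13), and PAO, which opens the chlorophyll ring, rose by 1.15 ± 0.13. The transcription factors ATAF1 and ORE1, both promoters of leaf senescence, rose by 2.36 ± 0.21 and by 2.15 ± 0.33. Compared with ethanol 0 h, NYC1, PPH, PAO, ATAF1 and ORE1 were higher by 1.21 ± 0.12, 0.96 ± 0.11, 1.0 ± 0.11, 2.80 ± 0.16 and 4.46 ± 0.33. SAG29, a sugar transporter induced in senescence, went the other way: it fell by 2.3 ± 0.67, a call lost without citral replicate 2, and was at -3.28 ± 0.62 against ethanol 0 h. The 13 senescence genes called higher numbered 5 without ethanol replicate 1 and 7 without ethanol replicate 2.

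Starch breakdown genes are known to be rhythmic in leaves. Of 26 starch and sugar metabolism genes 12 rose and 3 fell (median 0.67), with 12 higher and 2 lower against ethanol 0 h. GWD1, which phosphorylates starch to start its breakdown, stood at 53.1, 45.1 and 52.8 CPM in the ethanol libraries and 486, 644 and 405 CPM in the citral libraries (3.46 ± 0.17, adjusted p = 3.89e-16). PWD, which acts after it, rose by 2.34 ± 0.18, the amylase AMY3 rose by 1.75 ± 0.11 and the disproportionating enzyme DPE1 rose by 3.16 ± 0.25. GBSS1, the granule-bound starch synthase, stood at 240.5, 272 and 353 CPM in the ethanol libraries and 73.3, 78.9 and 102 CPM in the citral libraries (-1.74 ± 0.16). BAM9, a beta-amylase family member, fell by 1.75 ± 0.22. BAM3, the main beta-amylase of starch breakdown in leaves, also fell and stood at 207, 251 and 303 CPM in the ethanol libraries and 117, 114 and 153 CPM in the citral libraries (-0.98 ± 0.22), but it was higher by 1.79 ± 0.21 against ethanol 0 h. Relative to ethanol 0 h the other changes were 0.63 ± 0.13 for GWD1, 0.12 ± 0.09 for AMY3, -0.22 ± 0.14 for DPE1, -0.12 ± 0.15 for GBSS1 and 0.63 ± 0.20 for BAM9.

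Proteasome and autophagy genes rose modestly. 13 of 23 rose and 0 fell (median 0.46), with 10 higher and 1 lower against ethanol 0 h. NAC053, an activator of proteasome genes, stood at 14.6, 9.97 and 8.33 CPM in the ethanol libraries and 41.6, 75.1 and 67.6 CPM in the citral libraries (2.29 ± 0.25). NBR1, a receptor that brings ubiquitin-tagged aggregates to autophagy, stood at 127, 111 and 114 CPM in the ethanol libraries and 257, 348 and 272 CPM in the citral libraries (1.37 ± 0.13). ATG8H, a coat protein of autophagosomes, rose by 1.37 ± 0.27. The 3 genes were also higher against ethanol 0 h, by 2.02 ± 0.17, 0.71 ± 0.11 and 1.18 ± 0.19. The 13 proteasome and autophagy genes called higher numbered 7 without ethanol replicate 1, 8 without ethanol replicate 2, 8 without citral replicate 2 and 4 with unweighted libraries.

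**Figure D3:**
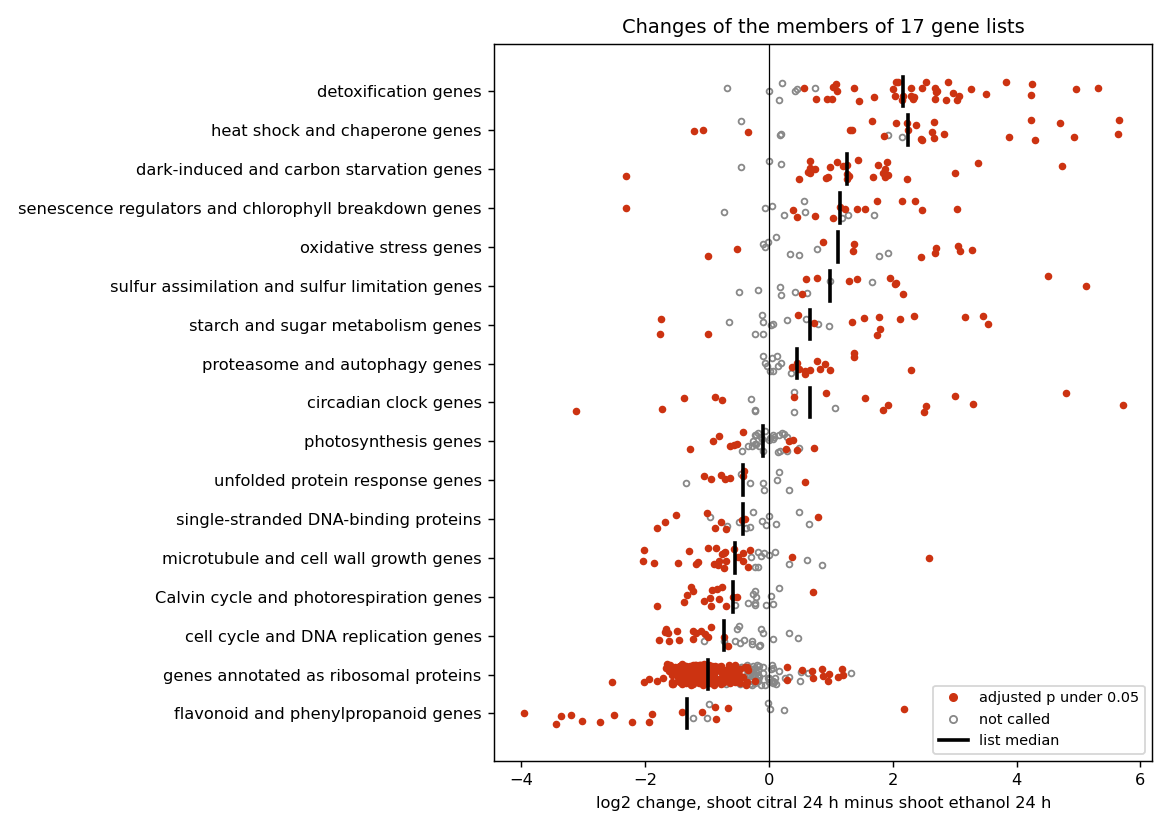
Log2 change of each tested member of 17 gene groups in shoots, citral 24 h minus ethanol 24 h, filled red where the adjusted p is under 0.05 and open grey otherwise, with a black line at the group median. Medians run from -1.32 for flavonoid and phenylpropanoid genes to 2.24 for heat shock and chaperone genes.

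Photosynthesis genes were called in shares near the background of 16.0% higher and 17.2% lower. Of 39 photosynthesis genes 5 rose and 7 fell, with a median of -0.09, and the other 27 ran from -0.44 to 0.48. LHCB2.3, a light-harvesting protein of photosystem II, stood at 1535, 1595 and 1644 CPM in the ethanol libraries and 789, 616 and 563 CPM in the citral libraries (-1.27 ± 0.19), and ATPD, of the plastid ATP synthase, fell by 0.90 ± 0.10. PSAF and PSAN, of photosystem I, rose by 0.73 ± 0.10 and by 0.39 ± 0.12, and the call of PSAN was lost without ethanol replicate 1 or 2 or citral replicate 1 or 2. Relative to ethanol 0 h 0 were higher and 19 lower, with LHCB2.3 at -1.07 ± 0.18. The 7 photosynthesis genes called lower numbered 14 without citral replicate 1 and 5 (with 8 higher) without citral replicate 3.

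In the Calvin cycle and photorespiration group 1 of 27 rose and 15 fell (median -0.58), but 8 were higher and 1 lower against ethanol 0 h. Compared with untreated 0 h 2 were higher and 7 lower (median -0.16), so the time 0 controls gave different counts. FBA2, a plastid aldolase, stood at 3326, 4259.7 and 4204 CPM in the ethanol libraries and 1672, 1462 and 1802 CPM in the citral libraries (-1.32 ± 0.14, adjusted p = 7.04e-09). GAPA-2, the plastid glyceraldehyde phosphate dehydrogenase, was at 2754, 2891 and 3091 CPM in the ethanol libraries and 1326, 1131 and 1253 CPM in the citral libraries (-1.26 ± 0.13), and RBCS1B, a second Rubisco small subunit gene, at 1649.8, 2219 and 1813 CPM in the ethanol libraries and 551, 489.7 and 783 CPM in the citral libraries (-1.81 ± 0.30). In each of them every citral library was lower than every ethanol library. CA1, a plastid carbonic anhydrase, fell by 1.05 ± 0.25, a call lost without citral replicate 2. Relative to ethanol 0 h, FBA2 and GAPA-2 differed by 0.02 ± 0.13 and -0.20 ± 0.12 and were not called, and RBCS1B was higher by 0.93 ± 0.28. Reads of the near-identical RBCS genes may be split between copies. The 15 Calvin cycle and photorespiration genes called lower numbered 8 with unweighted libraries.

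Chlorophyll synthesis genes fell against both controls, 11 of 21 with 1 higher (median -0.49), and 10 lower with 1 higher against ethanol 0 h. HEME2, of the early porphyrin steps, stood at 282, 283 and 299.9 CPM in the ethanol libraries and 149.9, 162 and 176 CPM in the citral libraries (-0.83 ± 0.10), and CHLI1, of the magnesium chelatase, fell by 0.61 ± 0.10. The exception was PORB, the protochlorophyllide oxidoreductase, which stood at 104, 75.1 and 66.6 CPM in the ethanol libraries and 398, 547 and 261 CPM in the citral libraries (2.34 ± 0.19). PORB had the opposite direction against ethanol 0 h, -2.15 ± 0.15. The 11 chlorophyll synthesis genes called lower numbered 7 with unweighted libraries.

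Growth genes were mostly lower. Of 36 microtubule and cell wall growth genes 23 fell and 2 rose (median -0.54), and 28 were lower and 4 higher against ethanol 0 h. EXPA5, an expansin that loosens the wall, stood at 32.2, 35.7 and 36.1 CPM in the ethanol libraries and 7.94, 6.88 and 12.5 CPM in the citral libraries (-2.04 ± 0.26). EXPA6 stood at 139, 128 and 125 CPM in the ethanol libraries and 53.2, 43.6 and 53.7 CPM in the citral libraries (-1.46 ± 0.18), and the wall enzyme XTH8 fell by 2.01 ± 0.27. The tubulins TUB3 and TUB7, the building blocks of the microtubules, fell by 0.71 ± 0.11 and by 0.99 ± 0.16. The expansins, XTH8 and both tubulins were lower against ethanol 0 h too, where EXPA5 was at -1.41 ± 0.25, XTH8 at -1.90 ± 0.25 and TUB7 at -1.13 ± 0.14. XTH24, a wall-modifying enzyme, went the other way, at 108, 112 and 86.1 CPM in the ethanol libraries and 541, 713 and 663 CPM in the citral libraries (2.58 ± 0.35), and was also higher against ethanol 0 h (1.66 ± 0.30). The 23 growth genes called lower numbered 15 without ethanol replicate 2, 13 without citral replicate 2 and 8 with unweighted libraries.

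Genes of cell division fell without exception among those called, 16 of 32 with 0 higher (median -0.72), and 15 were lower against ethanol 0 h. MCM2, of the helicase that opens replication origins, stood at 26.4, 36.7 and 33.3 CPM in the ethanol libraries and 8.87, 9.18 and 12.2 CPM in the citral libraries (-1.62 ± 0.26, adjusted p = 7.08e-06), and its partner MCM6 fell by 1.49 ± 0.23. TSO2 and RNR1, the subunits of the ribonucleotide reductase that makes DNA building blocks, fell by 1.78 ± 0.21 and by 1.23 ± 0.18. The replication genes were lower in every citral library than in any ethanol library. With ethanol 0 h as the control, MCM2, MCM6, TSO2 and RNR1 differed by -0.39 ± 0.24, -0.05 ± 0.22, 0.34 ± 0.19 and -0.02 ± 0.17, none of which was called. The 16 cell cycle genes called lower numbered 9 without citral replicate 2 and 9 with unweighted libraries.

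The title of the series names single-stranded DNA-binding proteins, and the 22 genes listed for them were all tested. Of these 1 rose and 9 fell (median -0.41), and against ethanol 0 h 4 were higher and 2 lower. RPA1B, a large subunit of the replication protein A that coats single-stranded DNA, stood at 12.2 and 12.6 CPM in ethanol replicates 1 and 2, at the floor in ethanol replicate 3 and 4.2, 2.87 and 4.35 CPM in the citral libraries (-1.67 ± 0.33). RPA1D stood at 19.5, 25.7 and 8.33 CPM in the ethanol libraries and 7.94, 6.59 and 7.54 CPM in the citral libraries (-1.50 ± 0.31). RPA3A, the small subunit, was at 8.45 and 5.25 CPM in ethanol replicates 1 and 2, at the floor in ethanol replicate 3 and 2.33, 1.43 and 2.90 CPM in the citral libraries (-1.80 ± 0.39), and RPA3B at 22.7, 25.2 and 33.3 CPM in the ethanol libraries and 12.6, 12.3 and 15.4 CPM in the citral libraries (-0.87 ± 0.19). In RPA1B and RPA3A the groups overlapped, with ethanol replicate 3 at the floor.

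Among the organellar members, WHY3, a whirly protein of plastids, stood at 29.4, 25.2 and 22.2 CPM in the ethanol libraries and 12.1, 12.9 and 18.0 CPM in the citral libraries (-1.0 ± 0.21). ODB2, which binds single strands in organelles, fell by 0.78 ± 0.18, and the mitochondrial MTSSB fell by 0.69 ± 0.25. OSB2 and OSB3, of the organellar family of such proteins, fell by 0.38 ± 0.13 and by 0.44 ± 0.14. RPA1A, a large subunit, stood at 6.72 and 3.67 CPM in ethanol replicates 1 and 2, at the floor in ethanol replicate 3 and 6.07, 10.9 and 10.4 CPM in the citral libraries and rose by 0.80 ± 0.27, with groups that overlapped. The other 12 members (RPA1C, RPA1E, RPA2, RPA2B, WHY1, WHY2, OSB1, OSB4, AT3G18580, ODB1, POT1A and POT1B) did not pass the test, with changes from -0.95 to 0.65. With the libraries left out 1 at a time, calls were lost in 4 of the 6 cases for MTSSB and OSB3, in 3 for RPA1A and OSB2, in 2 for RPA3A, and in 1 for RPA1B (ethanol replicate 1) and for ODB2 (citral replicate 2). None of RPA1B, RPA1D and WHY3 was called against ethanol 0 h, where they differed by -0.15 ± 0.31, -0.24 ± 0.29 and 0.16 ± 0.19, while RPA3A was lower (-0.95 ± 0.36) and OSB2 and OSB3 were higher (0.84 ± 0.12 and 0.41 ± 0.12). The 9 DNA-binding genes called lower numbered 5 without ethanol replicate 1, 4 without citral replicate 2 and 3 with unweighted libraries.

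Of 15 DNA damage response genes 1 rose and 5 fell (median -0.40), and 1 was higher and 1 lower against ethanol 0 h. BRCA1, of homologous repair, stood at 8.34, 6.82 and 8.33 CPM in the ethanol libraries and 3.27, 1.43 and 5.22 CPM in the citral libraries (-1.71 ± 0.42), and TK1A, a thymidine kinase, fell by 1.12 ± 0.27. Both calls were lost without citral replicate 2. BRCA1 was also lower against ethanol 0 h, at -1.42 ± 0.39. The 5 DNA damage genes called lower numbered 3 without citral replicate 1 and 0 (with 1 higher) without citral replicate 2.

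Ribosomal protein genes, a group defined from the annotation after values had been seen, fell in 219 of 298 and rose in 12 (median -0.98). Their changes ran from -2.54 to 1.32. With ethanol 0 h as the control 150 were lower and 14 higher (median -0.32). Ribosomal proteins are encoded by families of similar copies, so reads may be split between members. The 219 ribosomal protein genes called lower numbered 140 with unweighted libraries.

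**Figure D4:**
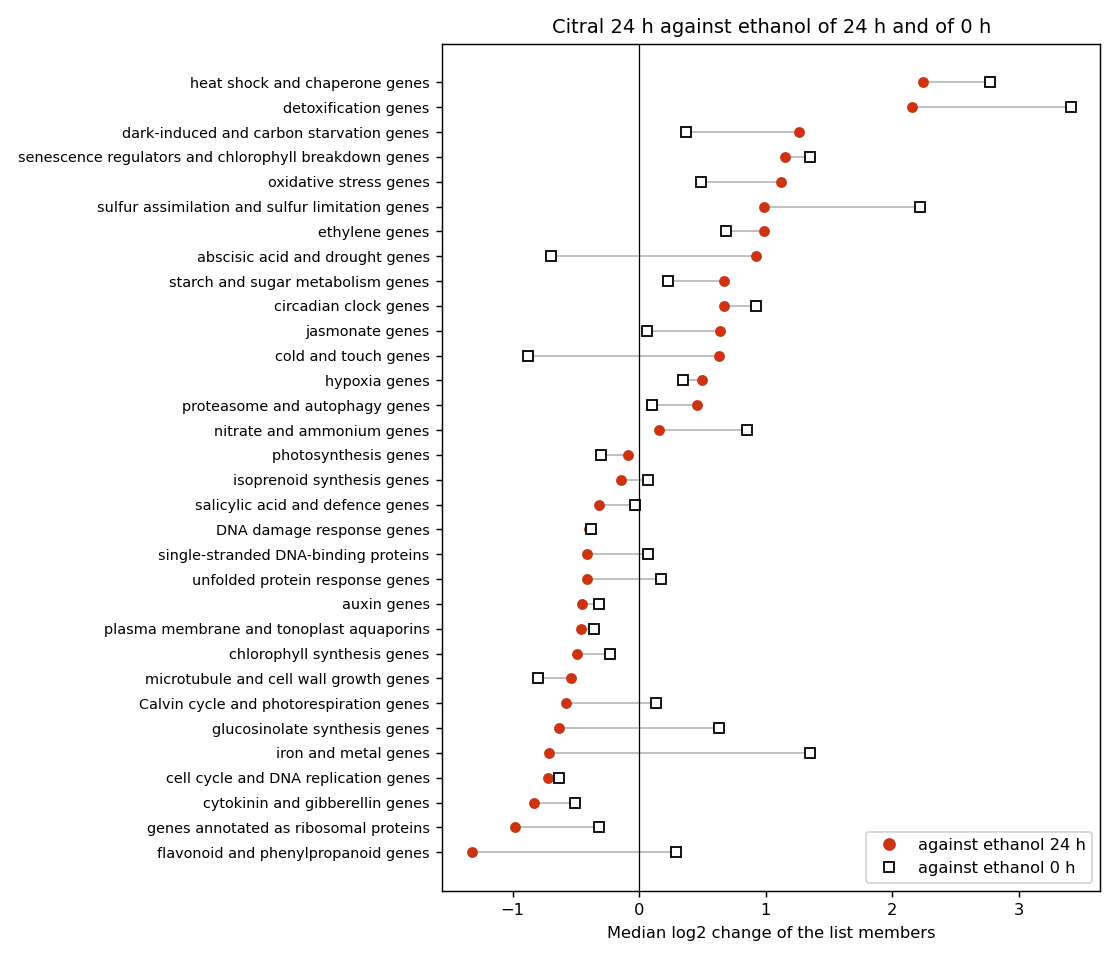
Median log2 change of the tested members of 32 gene groups in shoots after 24 h of citral, against ethanol 24 h (red circles) and against ethanol 0 h (white squares). Detoxification genes stand at 2.16 and 3.41, and flavonoid and phenylpropanoid genes at -1.32 and 0.29.

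Of 27 abscisic acid and drought genes 13 rose and 0 fell (median 0.92), but 5 were higher and 13 lower against ethanol 0 h, and 2 and 17 against untreated 0 h. ABI1, a phosphatase that restrains the hormone's signal, stood at 45.5, 34.6 and 30.5 CPM in the ethanol libraries and 103, 124 and 92.8 CPM in the citral libraries (1.48 ± 0.16). RD26, a drought-induced transcription factor, rose by 1.86 ± 0.37, and the dehydrin RAB18 rose by 2.99 ± 0.55. ABI1 and RD26 were also higher against ethanol 0 h (0.92 ± 0.13 and 1.41 ± 0.26), where RAB18 differed by -0.05 ± 0.26. Without ethanol replicate 1 the call of RD26 was lost. The 13 abscisic acid genes called higher numbered 7 without ethanol replicate 1, 8 without ethanol replicate 2 and 8 without citral replicate 2.

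Of 20 ethylene genes 9 rose and 0 fell (median 0.99; 7 higher and 4 lower against ethanol 0 h). EBF2, which marks ethylene regulators for degradation, stood at 131, 107 and 164 CPM in the ethanol libraries and 299, 292 and 250.4 CPM in the citral libraries (1.24 ± 0.19), and ERF1A rose by 2.48 ± 0.60, a call lost without ethanol replicate 1 or 2. Among 27 jasmonate genes 7 rose and 0 fell (median 0.64; 7 and 4 against ethanol 0 h). AOC2, an allene oxide cyclase of jasmonate synthesis, stood at 36.9, 38.3 and 44.4 CPM in the ethanol libraries and 86.4, 132 and 211 CPM in the citral libraries (1.75 ± 0.30). The salicylic acid and defence group showed 4 of 21 higher and 2 lower (4 and 3 against ethanol 0 h). Its share higher lay near the 16.0% of all genes. The receptor NPR1 was at 0.73 ± 0.17 and EDS1, a defence regulator, at -0.70 ± 0.23. Both of these calls were lost without ethanol replicate 1, that of NPR1 also without ethanol replicate 2 and that of EDS1 without citral replicate 3. The 9 ethylene genes called higher numbered 3 without ethanol replicate 1, 2 without ethanol replicate 2 and 5 with unweighted libraries. The 7 jasmonate genes called higher numbered 2 without ethanol replicate 1, 2 without ethanol replicate 2, 12 without citral replicate 1 and 12 without citral replicate 2. The 4 salicylic acid and defence genes called higher numbered 0 (with 1 lower) without ethanol replicate 1, 0 (with 2 lower) without ethanol replicate 2, 2 without citral replicate 1, 2 without citral replicate 2, 2 without citral replicate 3 and 1 with unweighted libraries.

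Auxin genes fell in 9 of 25 and rose in 4 (median -0.45), with 12 lower and 3 higher against ethanol 0 h. IAA3 and IAA17, repressors that auxin itself induces, fell by 1.93 ± 0.22 and by 2.09 ± 0.24, and IAA3 stood at 58.7, 44.6 and 52.8 CPM in the ethanol libraries and 11.7, 13.8 and 14.8 CPM in the citral libraries. The related IAA16 rose by 0.86 ± 0.11. IAA3 and IAA17 were lower against ethanol 0 h as well, -2.77 ± 0.20 and -0.86 ± 0.22. Of 20 cytokinin and gibberellin genes 9 fell and 2 rose (6 and 3 against ethanol 0 h). ARR9, a cytokinin response regulator like ARR15, stood at 79.1, 68.8 and 61.1 CPM in the ethanol libraries and 42.0, 33.8 and 33.1 CPM in the citral libraries (-1.03 ± 0.14), against 0.32 ± 0.12 relative to ethanol 0 h. The 9 auxin genes called lower numbered 5 without ethanol replicate 1 and 5 with unweighted libraries. The 9 cytokinin and gibberellin genes called lower numbered 4 without ethanol replicate 1, 5 without ethanol replicate 2 and 5 without citral replicate 2.

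Secondary metabolism genes that were called were mostly lower against ethanol 24 h and mostly higher against ethanol 0 h, but not against untreated 0 h. Of 22 flavonoid and phenylpropanoid genes 15 fell and 1 rose (median -1.32), while 7 were higher and 1 lower against ethanol 0 h, and 4 and 7 against untreated 0 h (median -0.72). PAL1, the entry enzyme of phenylpropanoids, stood at 187, 207 and 292 CPM in the ethanol libraries and 54.6, 44.7 and 98.1 CPM in the citral libraries (-1.93 ± 0.27). F3H, of flavonoid synthesis, stood at 35.4, 37.3 and 30.5 CPM in the ethanol libraries and 3.27, 3.15 and 13.9 CPM in the citral libraries (-3.01 ± 0.54). The repressor MYBL2 was the exception, at 58.4, 57.2 and 63.9 CPM in the ethanol libraries and 275, 284 and 195 CPM in the citral libraries (2.18 ± 0.18). Of 24 glucosinolate genes 10 fell and 0 rose (median -0.63), against 13 higher and 1 lower relative to ethanol 0 h, and 1 and 7 relative to untreated 0 h (median -0.18). MYB28 and MYB29, activators of the aliphatic branch, fell by 1.19 ± 0.15 and by 1.83 ± 0.29. Relative to ethanol 0 h, PAL1, F3H and MYB29 differed by 0.32 ± 0.25, -1.24 ± 0.52 and -0.53 ± 0.27 and were not called, and MYB28 was higher by 0.52 ± 0.14. The 15 flavonoid and phenylpropanoid genes called lower numbered 8 without citral replicate 1, 6 without citral replicate 2 and 8 with unweighted libraries. The 10 glucosinolate genes called lower numbered 5 without ethanol replicate 1, 5 without ethanol replicate 2, 5 without citral replicate 1, 2 without citral replicate 2 and 2 with unweighted libraries.

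Iron and metal genes also had opposite medians against the ethanol controls. Of 17 members 9 fell and 2 rose (median -0.71), and 13 were higher and 2 lower against ethanol 0 h (median 1.35), with 12 and 1 against untreated 0 h. NAS4, which makes the iron carrier nicotianamine, stood at 48.5, 42.5 and 38.9 CPM in the ethanol libraries and 5.60, 4.87 and 10.2 CPM in the citral libraries (-2.92 ± 0.37, adjusted p = 1.87e-07), and bHLH39, a regulator of iron uptake, fell by 2.87 ± 0.52. The metallothionein MT2A stood at 126, 120.2 and 106 CPM in the ethanol libraries and 354, 508 and 477 CPM in the citral libraries (1.89 ± 0.13), and FER4, a ferritin that stores iron, rose by 1.46 ± 0.26. Compared with ethanol 0 h, bHLH39 was higher by 3.02 ± 0.70, FER4 was at -0.93 ± 0.17 and NAS4 at -0.16 ± 0.37. Beside these genes, 7 of 11 tested root tissue markers were lower and 0 higher, IRT1 among them (median -2.05). Against ethanol 0 h 1 was higher and 0 lower (median 0.80). In ethanol shoots 9 of 11 were higher and 0 lower at 24 h than at 0 h, where 28.6% and 20.5% of all genes were, and their summed level was 13.7 to 28.8 CPM at 0 h against 30.5 to 102 CPM at 24 h. The root hair markers PRP3, EXPA7 and RHS12 were at the floor in citral replicates 1 and 2. The part of root tissue in the shoot samples in these values was not tested. The 7 root markers called lower numbered 1 without ethanol replicate 1, 4 without ethanol replicate 2, 1 without citral replicate 1 and 0 without citral replicate 2.

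Of 17 aquaporins, the water channels of membranes, 8 fell and 0 rose (median -0.46), with 9 lower and 0 higher against ethanol 0 h. TIP1;1, the tonoplast water channel, stood at 276, 274 and 222 CPM in the ethanol libraries and 98.1, 66.8 and 121 CPM in the citral libraries (-1.67 ± 0.18), and PIP2;7, of the plasma membrane, at 756, 762 and 744 CPM in the ethanol libraries and 453, 321 and 335 CPM in the citral libraries (-1.06 ± 0.15). Both were also lower against ethanol 0 h, at -0.40 ± 0.16 and -1.48 ± 0.14. Isoprenoid genes went both ways, 4 of 20 higher and 6 lower (median -0.14), and against ethanol 0 h 7 and 4 (median 0.07). PSY, which commits carbon to carotenoids, fell by 1.1 ± 0.13, and CCD4, which cleaves them, rose by 1.22 ± 0.23. Of 18 nitrate and ammonium genes 5 rose and 3 fell, with the asparagine synthetase ASN2 at -1.07 ± 0.22 and the nitrate reductase NIA2 at 0.47 ± 0.16, a call lost without any of 4 libraries (ethanol replicates 1 and 3, citral replicates 1 and 2). In this group 14 were higher and 0 lower against ethanol 0 h. Of 14 hypoxia genes 2 rose and 0 fell, the same counts as against ethanol 0 h, and the pyruvate decarboxylase PDC2 stood at 11.5, 13.6 and 13.9 CPM in the ethanol libraries and 92.9, 133 and 139.6 CPM in the citral libraries (3.31 ± 0.24). Among 14 cold and touch genes 3 rose and 1 fell, against 4 and 4 relative to ethanol 0 h. Of all genes 16.0% were higher and 17.2% lower against ethanol 24 h, and 22.4% and 17.8% against ethanol 0 h. The shares of isoprenoid and hypoxia genes that rose against ethanol 24 h lay near that 16.0%. The 8 aquaporins called lower numbered 5 with unweighted libraries. The 6 isoprenoid genes called lower numbered 3 without ethanol replicate 1, 3 without ethanol replicate 2, 3 without citral replicate 2 and 1 with unweighted libraries. The 5 nitrate and ammonium genes called higher numbered 1 (with 2 lower) without ethanol replicate 1, 3 without ethanol replicate 2, 3 without citral replicate 2 and 2 with unweighted libraries. The 3 cold and touch genes called higher numbered 0 (with 1 lower) without ethanol replicate 1.

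Markers of guard cells (1 of 7 higher, 1 lower), phloem companion cells (1 of 4 higher, 0 lower), trichomes (0 of 4 higher, 1 lower) and flowers (0 of 2 called) gave no common direction, and against ethanol 0 h the counts higher and lower were 0 and 1, 1 and 1, 0 and 1, and 0 and 0 in that order.

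The clock genes of the 24 h groups differed with their time of peak. Of 22 clock genes 11 rose and 5 fell (median 0.67), and against ethanol 0 h 15 were higher and 2 lower. Among morning genes, LHY stood at 396, 418 and 428 CPM in the ethanol libraries and 45.8, 47.6 and 48.5 CPM in the citral libraries (-3.12 ± 0.19, adjusted p = 1.77e-13), and CCA1 at 381, 387 and 425 CPM in the ethanol libraries and 120, 111 and 141 CPM in the citral libraries (-1.72 ± 0.18). RVE8, RVE1 and LNK2, which act with them, fell by 1.37 ± 0.20, 0.76 ± 0.22 and 0.87 ± 0.21. These morning genes thus were lower in all 3 citral libraries, while relative to ethanol 0 h LHY, CCA1, RVE8, RVE1 and LNK2 were higher, by 1.52 ± 0.20, 1.38 ± 0.17, 1.57 ± 0.19, 1.77 ± 0.20 and 0.96 ± 0.20. RVE4 was not lower, at 154 to 171 CPM in ethanol 24 h (n = 2) and 143 to 292 CPM in citral 24 h (n = 3). The 11 clock genes called higher numbered 7 without ethanol replicate 1.

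Day and evening genes went the other way. PRR7 stood at 119, 108 and 80.5 CPM in the ethanol libraries and 465, 421 and 321 CPM in the citral libraries (1.92 ± 0.16, adjusted p = 4.01e-11), and PRR9 rose by 0.93 ± 0.23, a call lost without ethanol replicate 1 or 2 or citral replicate 2. GI, which joins the clock to flowering, stood at 12.3, 15.2 and 11.1 CPM in the ethanol libraries and 98.1, 113 and 91.7 CPM in the citral libraries (3.0 ± 0.27). FKF1, a blue light receptor of the flowering pathway, stood at the floor in the 3 ethanol libraries and 9.34, 14.0 and 7.83 CPM in the citral libraries, at least 37.8-fold higher when 3 counts over the ethanol group are taken as the floor. TOC1 and ELF3 rose by 1.55 ± 0.19 and by 1.85 ± 0.16, the evening complex member LUX rose by 2.50 ± 0.32 and its partner ELF4 rose by 2.53 ± 0.75. PRR3 rose by 3.3 ± 0.69 and ZTL, a light-dependent F-box protein, rose by 0.41 ± 0.12. The 6 clock genes that were not called ran from -0.29 to 1.06. Calls were lost without ethanol replicate 1 for ELF4, PRR3, ZTL and RVE1, without ethanol replicate 2 for ELF4 and ZTL, without citral replicate 1 for ZTL, and without citral replicate 2 for RVE1. Relative to ethanol 0 h the changes were 0.74 ± 0.14 for PRR7, 0.79 ± 0.17 for GI, 0.18 ± 0.13 for TOC1 and -0.30 ± 0.11 for ELF3.

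The response at 24 h was compared with that at 12 h by testing the difference of the citral minus ethanol changes, which share no library. 654 of 19585 genes differed, or 3.34%, with 325 higher (1.66%) and 329 lower (1.68%) at 24 h. The clock gene LHY stood at 692 ± 64.1 CPM in ethanol (n = 2) and 46.2 ± 8.96 CPM in citral (n = 3) at 12 h. At 24 h it stood at 407 ± 16.2 CPM (n = 2) and 47.3 ± 1.37 CPM (n = 3). Responses at both times thus held a clock difference between the groups, and its part in the count was not tested. Dark-induced genes differed in 8 higher and 0 lower of 32, and cell cycle and DNA replication genes in 0 higher and 7 lower. The unfolded protein response group had 5 lower, and ribosomal proteins 20 lower with 0 higher. The change of GDH2 was -0.12 ± 0.20 at 12 h and 1.84 ± 0.22 at 24 h, and that of MCM2 -0.01 ± 0.18 and -1.62 ± 0.26, with neither called at 12 h. Among detoxification genes 1 was higher and 1 lower at 24 h than at 12 h. Ethanol replicate 2 of 12 h held only 0.326 M reads, with 73.9% of loci at the floor and 0.525% mitochondrial reads against 0.00168% to 0.00295% in the other shoot libraries of 12 h. Without it, an alternative added after seeing the data, 710 genes differed, 288 higher and 422 lower, with 6 higher and 0 lower in the dark-induced group, 7 lower in the cell cycle group, 6 lower in the unfolded protein response group and 30 lower among ribosomal proteins. With libraries of 24 h left out or unweighted, the count of 654 was 147 without ethanol replicate 1, 26 without ethanol replicate 2, 115 without citral replicate 1, 108 without citral replicate 2 and 12 without library weights.

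The response at 1 h differed from that at 24 h in 4287 genes, or 21.9%, 1998 higher at 24 h (10.2%) and 2289 lower (11.7%). Of 39 photosynthesis genes 25 had a higher change at 24 h and 1 a lower one, their median being -0.61 at 1 h and -0.09 at 24 h. Detoxification genes split into 5 higher and 16 lower at 24 h. CYP81D11 changed by 8.74 ± 0.49 at 1 h and by 3.83 ± 0.38 at 24 h. The dark-induced group had 20 higher and 1 lower at 24 h, and ribosomal proteins 12 higher and 179 lower. The count of 4287 was 2409 without ethanol replicate 1, 2472 without ethanol replicate 2, 2381 without citral replicate 2 and 1275 without library weights.

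Shoots and roots differed in their response at 24 h in 6467 of 21092 genes, or 30.7%, 2973 higher in shoots (14.1%) and 3494 lower (16.6%). Dark-induced genes had a higher change in shoots in 24 of 32 and a lower one in 1, and in roots their median was -0.08. BGLU30 changed by 4.74 ± 0.50 in shoots and -0.52 ± 0.16 in roots. Ribosomal proteins had a lower change in shoots in 204 and a higher one in 10. The change was also lower in shoots for 12 of 22 flavonoid and phenylpropanoid genes, 17 of 24 glucosinolate genes and 15 of 32 cell cycle genes. Aquaporins had a higher change in shoots in 9 of 17 and a lower one in 2, with a median of -1.19 in roots and -0.46 in shoots. Detoxification genes had a higher change in shoots in 23 of 45 and a lower one in 2. In roots 36 of them were higher and 6 lower after citral (median 1.22). Their summed level in ethanol at 24 h was 9852 to 11591 CPM in roots and 2618 to 2893 CPM in shoots. In citral shoots it was 8289 to 12273 CPM. The count of 6467 was 3693 without ethanol replicate 1, 3094 without ethanol replicate 2, 3980 without citral replicate 2 and 2692 without library weights.

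**Figure D5:**
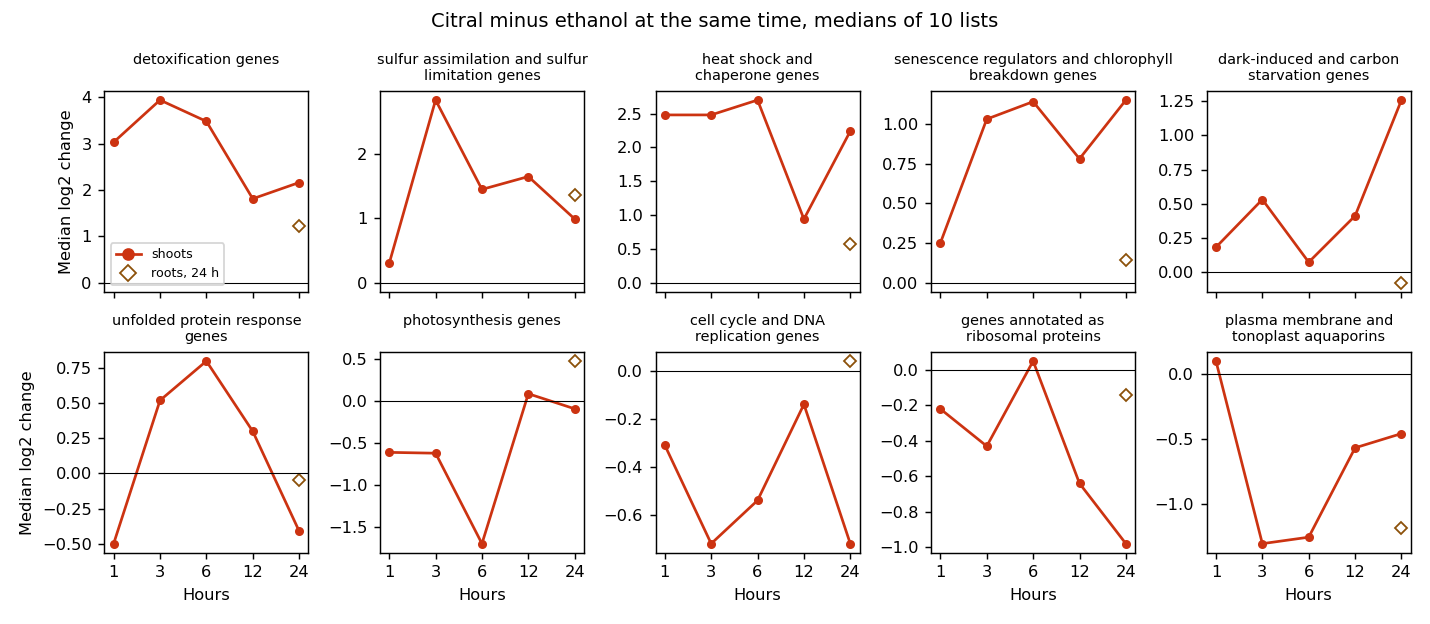
Median log2 change, citral minus ethanol at the same time, of 10 gene groups in shoots at 1, 3, 6, 12 and 24 h (red circles) and in roots at 24 h (open diamonds). Photosynthesis genes stand at -0.61 at 1 h and -0.09 at 24 h, and dark-induced genes at 0.41 at 12 h and 1.26 at 24 h.

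Values are given here for 153 called genes, 83 higher and 70 lower. Another annotated gene overlaps 47 of them, in 42 cases on the other strand. As the use of strand in counting is not stated, reads of such pairs, AT1G56300 among them, cannot be told apart.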

How the data were processed

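RNA from shoots was sequenced with TruSeq libraries per the labels' protocols. A table of 22122 loci in 72 libraries was deposited by the authors, and its whole numbers of 1 or more were treated as a score. The submitters' processing notes name the build TAIR10. How reads were aligned and counted, and whether strand was used, is not given in the sources used here. Within each library the deposited score values were taken as whole reads multiplied by a single factor (0.6655 to 1.311), and reads were recovered by dividing by it. At least 98.7% of the values up to 150 could be reached this way. A factor under 1 reaches every whole number, as in shoot ethanol 24 h replicate 3 (0.91), so the share says nothing there. That factor rests on how often each value occurs. In the other libraries compared here the factor reaches 83.2% to 87.9% of whole numbers. A value at the floor of 1 was taken as 0.5 read. Recovered reads ran from 0.183 to 20.6 M over the 72 libraries, and from 0.36 to 8.64 M in the 6 compared here.

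Factors by TMM (30% of log ratios and 5% of abundances trimmed, genes averaging 10 CPM or more) were computed here, and limma 3.58.1 in R 4.3.3 fitted voom with library quality weights to 36 shoot libraries with 12 group means and a robust prior. The organ difference was fitted over all 72 libraries. Genes needed 1 CPM in 3 libraries, and p-values were adjusted by Benjamini and Hochberg over all genes of a fit, with 0.05 as the threshold. Python 3.11.15 and pandas 2.3.3 made the summaries. Clock distances were taken over log2(CPM + 1) of group means.

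The comparison, the 31 gene lists and 5 marker lists, and the ribosomal group were chosen with earlier results of these data known. Named genes come from the 15 largest rises and falls among called genes with non-overlapping groups and 5 CPM or more in the higher one, the 10 largest differences in CPM per direction, up to 6 called members of each list in its main direction and 3 in the other, and all clock and single-stranded DNA-binding genes. A bound on a fold takes 3 counts over the group as the floor, and ethanol means leave out libraries under 0.5 M reads unless stated. Alternatives were other scalings, weights, filters, floors, pseudocounts, controls and left-out libraries. Promoters and gene overlaps came from RefSeq TAIR10.1, in which 21979 loci were found. Gene names are symbols of that annotation or of the gene lists.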

Additional observations from a re-analysis of the deposited data

Results flagged for a closer look

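The citral response of shoots differed between 24 h and 12 h in 654 genes by the limma test of the difference itself, 20 of them named in the report (8 higher and 12 lower at 24 h). In this section genes that stood at the floor in every library of any group compared are left out of the ranking, among them LDOX and THI2.2 for roots, IRT1 and CYP82C4 for roots and for citral at 24 h, and ARR15 for citral at 24 h. Of the remaining named genes those with the largest log2 differences, given in parentheses as 24 h minus 12 h, were GDH2 (1.95), AOX1A (1.55), LUX (1.48), RVE1 (1.25) and NIA2 (1.16) in one direction, which are enzymes of nitrogen metabolism, the alternative oxidase and 2 clock genes. In the other direction they were GSTL1 (-3.72), MCM2 (-1.62), AOC2 (-1.47), MCM6 (-1.34) and TSO2 (-1.23), of detoxification, DNA replication, jasmonate synthesis and nucleotide supply. Without ethanol replicate 2 of 12 h, AOX1A and AOC2 were no longer called, and the other 8 were.

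Between 24 h and 1 h the response differed in 4287 genes, 96 of them named (47 higher and 49 lower at 24 h). Those with the largest log2 differences by the same ranking, 24 h minus 1 h, were PRR5 (7.16), ELI3-2 (6.42), AT3G62550 (6.20), AT1G56300 (5.87) and CCL (4.40), and in the other direction bHLH38 (-5.22), CYP81D11 (-4.92), bHLH39 (-4.56), XTH17 (-4.48) and GSTL1 (-3.82). Citral shoots of 24 h against ethanol 0 h were not called for AT3G62550 (0.48), AT1G56300 (0.14), CCL (-0.43), bHLH38 (1.00) and GSTL1 (0.23). PRR5 (1.52), ELI3-2 (9.31), CYP81D11 (6.61) and bHLH39 (3.02) were called higher there, and XTH17 (-4.9) lower. Ethanol shoots themselves changed from 0 h to 24 h by -4.46 (AT3G62550), -5.81 (AT1G56300), -4.47 (CCL) and 4.99 (bHLH38). The part of the control in these differences was not tested.

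Between shoots and roots at 24 h it differed in 6467 genes, 108 of them named (59 higher and 49 lower in shoots). Those with the largest log2 differences by the same ranking, shoots minus roots, were BGLU30 (5.70), HSP17.6A (4.66), HSP17.4 (3.88), LSU1 (3.48) and AT2G29500 (3.44), among them 3 small heat shock genes, and in the other direction EXPA5 (-4.64), AT4G02850 (-4.02), F3H (-2.74), AT2G27402 (-2.41) and NAS4 (-2.36). In roots EXPA5 stood at 0.151 ± 0.105 CPM in ethanol and 0.58 ± 0.596 CPM in citral (SD), and AT2G27402 at 2.50 ± 0.876 and 0.664 ± 0.676 CPM, so their differences rest on few root reads. The calls of citral against ethanol in shoots were lost without ethanol replicate 1 for HSP17.6A, HSP17.4, LSU1 and AT2G29500. That of HSP17.6A was also lost without ethanol replicate 2. Groups of 3 libraries were not tested for single outlying libraries.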

How the results depend on the processing

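The 6507 calls (3142 higher, 3365 lower) came to 6460 to 6667 under median-of-ratios factors, quantile normalization, library totals, a mean of 5 CPM as the filter, or the floor taken as 0 or 1 read, to 6221 in a fit of the 6 libraries alone, to 7340 with no filter and to 5933 with deposited values divided by library reads, an alternative chosen after seeing the data. They moved to 13099 (12642 and 457; 96.5% higher) with the deposited values as they stand, where the median gene shifted by 0.86, to 2694 (1418 and 1276) without library weights, to 2377 (1315 and 1062) and 2676 (1459 and 1217) by limma-trend with a pseudocount of 0.5 and 2 CPM, and to 2587 (1238 and 1349) with a 2-fold minimum. Leaving out 1 library gave 3303 to 6824 calls, 1312 to 3160 higher and 1492 to 3664 lower. Against ethanol 0 h there were 7874 and against untreated 0 h 7152. The differences from 12 h, 1 h and roots (654, 4287, 6467) became 19042, 18570 and 20339 with the deposited values as they stand, 12, 1275 and 2692 without weights, and 26 to 744 (710 without ethanol replicate 2 of 12 h), 2381 to 4362 and 3094 to 6166 without 1 library. Divided by library reads, the share higher moved from 49.7% to 78.5% for 12 h and from 46.6% to 65.6% for 1 h. The causes were not tested.

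Of 153 called genes named with values 30 lost their call without weights, 37 and 30 by limma-trend at 0.5 and 2 CPM, 28 without ethanol replicate 1, 13 without ethanol replicate 2, 1 without ethanol replicate 3, and 12, 21 and 4 without citral replicates 1, 2 and 3. None of these genes changed sign under these. Among 37 gene and marker lists the median changed sign in 16 and the majority of calls turned in 15 with the deposited values as they stand. Leaving out 1 library changed the sign of 0 to 2 medians and turned 0 to 4 majorities, 4 of them without ethanol replicate 1 (heat shock, salicylic acid and defence, nitrate and ammonium, and cold and touch genes). By limma-trend at 0.5 and 2 CPM the single-stranded DNA-binding group had 1 gene higher and 0 lower. For single genes the sign changed, with the log2 change in parentheses, against ethanol 0 h for ARR9 (0.32), ASN2 (0.76), BAM3 (1.79), BAM9 (0.63), BIP2 (0.19), CAT3 (-0.22), CCA1 (1.38), CCL (-0.43), CNX1 (0.31), CRT1A (0.10), DPE1 (-0.22), ELF3 (-0.30), FBA2 (0.02), FER4 (-0.93), FSD1 (-0.30), GR1 (1.33), GSTL1 (0.23), HSP90-2 (0.65), LHY (1.52), LNK2 (0.96), MTSSB (0.14), MYB28 (0.52), OSB2 (0.84), OSB3 (0.41), PAL1 (0.32), PORB (-2.15), PSAF (-0.19), PSAN (-0.19), PSY (0.08), RAB18 (-0.05), RBCS1B (0.93), RCA (0.51), RVE1 (1.77), RVE8 (1.57), TSO2 (0.34), WHY3 (0.16), bHLH38 (1.00), bHLH39 (3.02) and bZIP28 (-0.02), against untreated 0 h for AOC2 (-0.11), ASN2 (0.03), BAM3 (1.27), BAM9 (0.15), BIP2 (0.06), CNX1 (0.13), CRT1A (0.00), CYP82C4 (1.05), FER4 (-0.13), FSD1 (-0.15), GR1 (0.64), GSTL1 (1.57), HSP90-2 (0.65), LHY (0.15), LNK2 (0.41), MTSSB (0.07), MYB28 (0.00), OSB2 (0.49), OSB3 (0.05), PORB (-1.95), PSAF (-0.26), PSAN (-0.27), RAB18 (-0.82), RBCS1B (0.09), RD26 (-0.10), RVE1 (0.56), RVE8 (0.20), SULTR4;2 (-0.25), TPS11 (-0.42), bHLH38 (0.09) and bHLH39 (1.65), and with the deposited values as they stand for ATPD (0.04), BIP2 (0.25), CHLI1 (0.37), CNX1 (0.16), CRT1A (0.38), EDS1 (0.39), GR1 (0.63), HEME2 (0.09), ODB2 (0.13), OSB2 (0.68), OSB3 (0.48), RVE1 (0.24), TUB3 (0.01) and WHY3 (0.10). No paired analysis was possible because the labels give no replicate numbers, those used follow the order of deposit, and whether samples share a plate is not known. At 0.36 M reads ethanol replicate 3 limits what can be read for loci under 2.78 CPM.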
